A study of Mus musculus with 3 samples.

Results

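CELF1 binding sites that lie just upstream of the end of a transcript, here called end clusters, were taken from CLIP-seq of mouse heart, muscle and C2C12 myoblasts. An end cluster is a deposited cluster whose midpoint falls in a 3′ UTR of its own gene and at most 200 nt upstream of an annotated end of a protein-coding transcript of that gene, on the same strand. Of 72222 clusters, 4497 met this rule, and another 23608 clusters lay elsewhere in 3′ UTRs. Only position chose the members. There were 2053 end clusters among 42263 clusters in heart, 2059 among 24844 in muscle and 385 among 5115 in C2C12 myoblasts.

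In CLIP-seq, UV light links a protein to RNA that it contacts, and the RNA recovered with the protein by an antibody is sequenced. The tissues were ventricle and muscle of C57/BL6 mice aged 16 weeks, and C2C12 is an established line of mouse myoblasts, the dividing precursors of muscle cells. All 3 libraries used light of 254 nm and the monoclonal antibody 3B1, which recognises endogenous CELF1 (CUGBP1). No gene was altered and no agent was given, each group is 1 library, and the tissue libraries hold every cell type of the tissue. For this reason the tests below compare libraries, not tissues, and cover counting error only. Clusters of 1 gene are also not independent of each other.

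CELF1 is an RNA-binding protein that recognises GU-rich sequence and is known for regulating alternative splicing and, from 3′ UTRs, for promoting deadenylation and decay of mRNAs. The end of an mRNA is made by cleavage shortly downstream of a poly(A) signal, most often AAUAAA or AUUAAA, after which a poly(A) tail is added. Many genes carry several such ends, and the choice among them sets which 3′ UTR sequence an mRNA holds. Sites in the last stretch of a 3′ UTR therefore lie beside the cleavage machinery's own sequence elements and beside the tail.

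In 111 genes a stretch of at least 10 nt was covered by an end cluster of heart, of muscle and of myoblasts alike. There were 124 such stretches with a median length of 40 nt, and all except 4 held UGU, the core of the known CELF1 motif, with a median of 3 UGU each. The background was also high: of all 3′ UTR clusters, UGU stood in 97.5% (heart), 97.8% (muscle) and 89.0% (myoblasts). The count therefore does not set the common stretches apart, and no test compared them. The 30-nt windows richest in UGU from 8 of these genes are shown as examples of end sites common to the libraries. They are written 5′ to 3′ along the transcript in genome letters (T for U), on mm9, with each UGU in capitals.
R3hdm4 (chr10:79373173-79373202, minus strand): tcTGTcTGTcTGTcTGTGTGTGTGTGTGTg
Fubp3 (chr2:31472038-31472067, plus strand): gttTGTTGTTGTTGTTGTTGTTGTTGTTGT
Chchd2 (chr5:130357090-130357119, minus strand): TGTaTGTagTGTtggttactggggaagTGT
Atn1 (chr6:124692701-124692730, minus strand): TGTGTgctgccccgccccatcccTGTGTGT
Arl6ip1 (chr7:125262499-125262528, minus strand): ggaattTGTGTGTGTGTgactaatacaTGT
Acly (chr11:100337823-100337852, minus strand): tgaaaTGTctTGTGTcagTGTcctcTGTGT
Tmpo (chr10:90610422-90610451, minus strand): aTGTGTacttggtctttTGTcTGTGTcTGT
Rangap1 (chr15:81534724-81534753, minus strand): acttcccgtTGTGTTGTGTGTctgggcTGT

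The windows were chosen for their UGU, so that their content describes them and tests nothing. R3hdm4 held 10 overlapping UGU in 30 nt and Fubp3, which encodes a KH-domain protein that binds single-stranded nucleic acid, held 9. In R3hdm4 the 3′ edge of the window lay 190 nt upstream of the transcript end at position 79372983. That end is not the last one of the gene and has no poly(A) signal within 40 nt. The same holds for the end beside the Fubp3 clusters, whose midpoints lay 187 nt upstream in heart, 168 nt in muscle and 197 nt in myoblasts. The end beside the Atn1 clusters also has no signal there. In Rangap1, the gene of the GTPase-activating protein that drives Ran-dependent nuclear transport, the window lay 40 nt upstream of the end at 81534684. Acly makes cytosolic acetyl-CoA from citrate and Tmpo encodes lamina-associated polypeptide 2 of the nuclear envelope. Their windows ended 151 and 106 nt upstream of the transcript end. The sites of Aplp2, a relative of the amyloid precursor protein, and of Hsp90ab1, the constitutive cytosolic HSP90 chaperone, completed the 10 genes with the most UGU in a common stretch. In Hsp90ab1 the clusters of all 3 libraries had the same 3′ edge, at 45704754, and their midpoints lay 69 nt upstream of the end in heart, 65 nt in muscle and 71 nt in myoblasts.

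**Figure D1:**
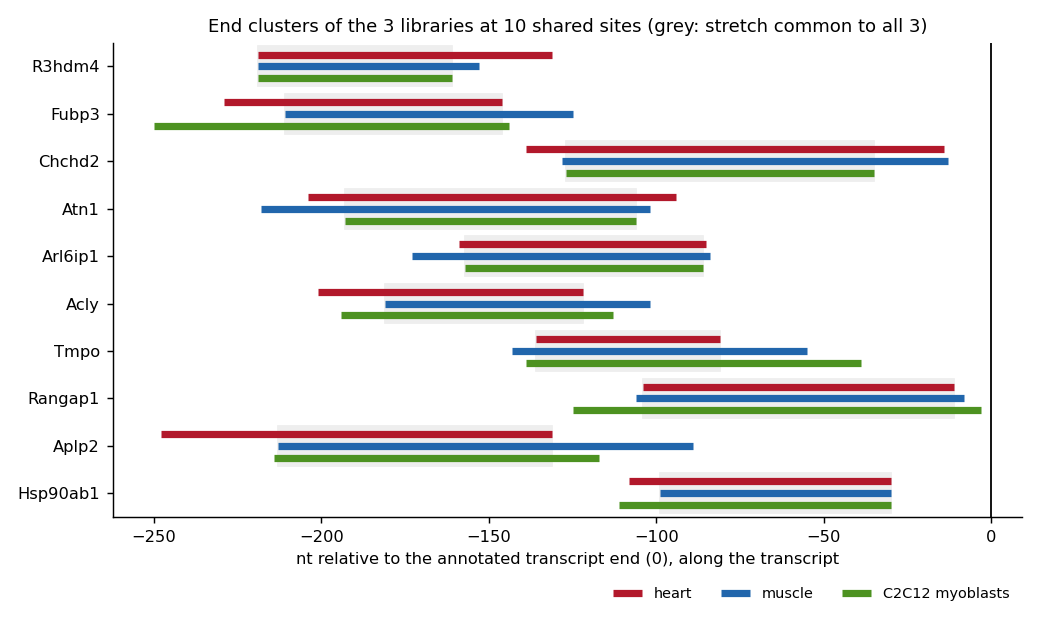
Position of the end clusters of heart (red), muscle (blue) and C2C12 myoblasts (green) in the 10 genes with the most UGU in a common stretch, in nt along the transcript with the annotated end at 0; grey marks the stretch common to the 3 libraries. The bars of the 3 libraries overlap in each gene by construction, and midpoints range from 57 nt upstream of the end (Rangap1, muscle) to 197 nt (Fubp3, myoblasts).

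A poly(A) signal itself lay inside the common stretch in 12 genes. The 4 windows with the most UGU among them are shown because they place the motif and the signal side by side. The signal is in capitals.
Vat1 (chr11:101320067-101320096, minus strand): tgcctttgtgtctgtgtcAATAAAaagcca
Lman2 (chr13:55445207-55445236, minus strand): gtgtgagtgtgtgaaagaAATAAAtcccta
Ly6a (chr15:74825316-74825345, minus strand): tgtccccctgttgagtccAATAAAcccttt
Pqbp1 (chrX:7471660-7471689, minus strand): aacaagcccttgttgtttAATAAAagcttt

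In Vat1 4 UGU stood in the 30 nt around a signal that lay 14 nt upstream of the annotated end at 101320059. The end clusters that covered it spanned 90 nt in heart, 50 nt in muscle and 90 nt in myoblasts, with midpoints 47, 28 and 48 nt upstream of the end. In Lman2, a lectin that carries cargo through the early secretory pathway, the signal lay 19 nt upstream of the end and the window held 3 UGU. Ly6a is the surface antigen Sca-1, and the midpoints of its signal-covering clusters lay at 38 nt in heart, 35 nt in muscle and 35 nt in myoblasts. Pqbp1, a nuclear polyglutamine-binding protein, had clusters with midpoints at 48, 43 and 35 nt.

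The libraries were checked against marker genes by the presence of any cluster. Of 10 heart markers, 8 had a cluster in heart, 3 in muscle and 1 in myoblasts. For 10 skeletal muscle markers, the counts were 7, 9 and 0. Of 10 myoblast markers, 3, 3 and 4 had one, and Des, Cdh15, Mki67, Myf5, Myog and Pax7 had none in myoblasts, so that the labelled cell type is only partly covered by its markers. All 8 endothelial markers had a cluster in heart, 5 had one in muscle and 0 in myoblasts. Among these endothelial genes Tek had end clusters in heart and Flt1 in muscle. The depth behind a cluster is unknown, since the files hold no read numbers.

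End clusters were unevenly spread over the strands of the genome. Of 3′ UTR clusters on the minus strand, 17.1% were end clusters in heart, 19.05% in muscle, with 23.0% in myoblasts, against 12.01%, 13.8% and 21.1% on the plus strand. The difference passed a two-sided Fisher's exact test in heart (adjusted p = 1.02e-16) and muscle (adjusted p = 8.4e-15) and did not pass in myoblasts (adjusted p = 0.382). Clusters as a whole were near balance in the tissues, with 49.9% on the minus strand in heart and 48.96% in muscle, against 56.7% in myoblasts. On the minus strand the clusters of muscle piled up 40 to 59 nt upstream of the end. There a 20-nt bin held 203 clusters or 3.13% of the 3′ UTR clusters on that strand. On the plus strand the same bin held 84, or 1.41% of the 3′ UTR clusters there. In heart that bin held 174 clusters (2.32%) on the minus strand and 68 (1.06%) on the plus strand. Values are given below within strands wherever that changed a result, and the origin of the asymmetry was not tested. It also touches the examples: 9 of the 10 sites with the most UGU and 4 of the 4 signal windows lie in genes on the minus strand. Of the 111 genes with a common stretch, 81 lie on that strand.

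**Figure D2:**
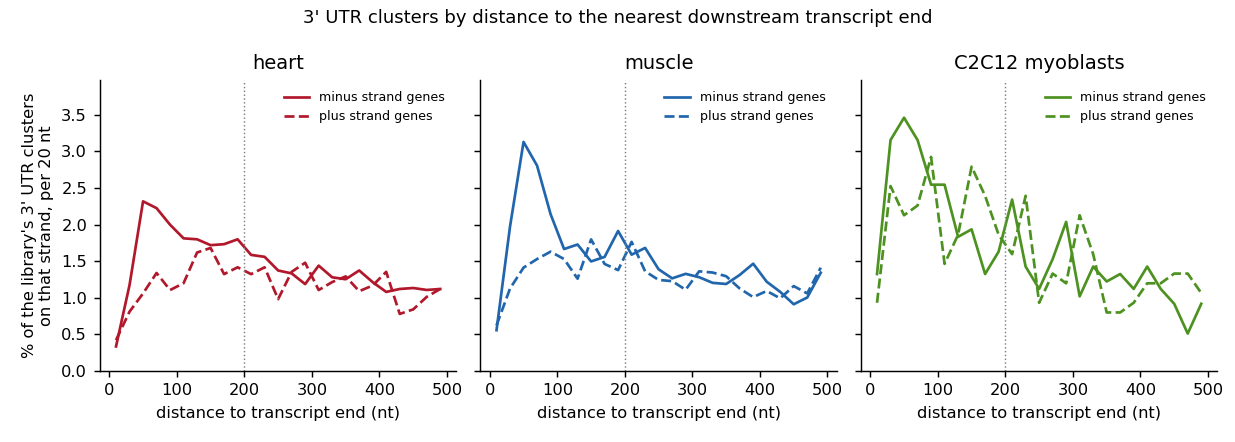
Share of the 3′ UTR clusters of each library (y axis, percent of the clusters on that strand, per 20 nt) against the distance of the cluster midpoint from the nearest downstream transcript end (x axis, nt), for genes on the minus strand (solid) and the plus strand (dashed); the dotted line marks 200 nt. In muscle the minus strand reaches 3.13% at 40 to 59 nt and the plus strand 1.41%.

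End clusters made up 14.7% of the 3′ UTR clusters in heart (95% exact binomial interval 14.1 to 15.3), 16.6% in muscle (15.9 to 17.2) and 22.2% in myoblasts (20.3 to 24.2). Of all clusters they were 4.86%, 8.29% and 7.53%. The share of a gene's annotated 3′ UTR sequence inside the 200-nt windows was averaged over the 3′ UTR clusters. This mean was 16.1% in heart, 16.1% in muscle and 18.9% in myoblasts, so that the share of clusters differed little from it in the tissues. Each of the 3 pairs of libraries differed in a Fisher's exact test (two-sided), at an adjusted p of 4.83e-05 for heart against muscle, 2.54e-14 for heart against myoblasts and 2.07e-08 for muscle against myoblasts. All 3 differences also held inside each strand, and when only genes with a 3′ UTR cluster in both libraries of a pair entered. Counted per gene the order of myoblasts turned round. An end cluster was present in 38.8% of the 4146 genes with a 3′ UTR cluster in heart, in 43.1% of 3612 in muscle and in 30.6% of 1139 in myoblasts. With 1 end cluster and 1 other cluster per gene the share was 3.15 percentage points higher in heart than in myoblasts (adjusted exact p = 0.0288) and 5.9 points higher in muscle than in myoblasts (adjusted exact p = 1.85e-04). Both counts per gene depend on how many 3′ UTR clusters a gene holds. There were 13934 such clusters in 4146 genes in heart, 12437 in 3612 in muscle and 1734 in 1139 in myoblasts. The part of this in the turned order was not tested.

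Most genes had a single end cluster. In heart 1260 genes had 1, 285 had 2 and 65 had 3 or more. In muscle the counts were 1168, 300 and 90, and in myoblasts 316, 29 and 3. The end held the only 3′ UTR cluster in 31.1% of the 1610 genes with an end cluster in heart, in 32.3% of 1558 in muscle and in 63.5% of 348 in myoblasts. Genes of myoblasts held fewer 3′ UTR clusters each, by the numbers of clusters and genes given above. The longest annotated 3′ UTR had a median length of 1528 nt in the genes with an end cluster in heart, 1580.5 nt in muscle and 1349.5 nt in myoblasts, against 2052.5, 2057 and 2257 nt in the other genes with a 3′ UTR cluster. The median was shorter in the genes with an end cluster in every library, a description with no test.

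Heart and muscle shared 906 genes with an end cluster, which is 56.3% of the genes of heart and 58.2% of those of muscle. Heart and myoblasts shared 192 genes, 11.9% of the genes of heart and 55.2% of those of myoblasts. Muscle and myoblasts shared 180, 11.6% and 51.7% of each. End clusters were found in all 3 libraries in 144 genes, in heart alone in 656, in muscle alone in 616 and in myoblasts alone in 120, of 2382 genes in all. As background, any 3′ UTR cluster was shared by heart and muscle in 2869 genes (69.2% of those of heart and 79.4% of those of muscle), by heart and myoblasts in 905 (21.8% and 79.5%) and by muscle and myoblasts in 836 (23.1% and 73.4%). Genes found in 1 library alone were 40.7% of the genes with an end cluster in heart, 39.5% in muscle and 34.5% in myoblasts. For genes with any 3′ UTR cluster these shares were 27.6%, 18.8% and 14.9%. Of the genes with an end cluster in 1 library alone, 392 in heart, 277 in muscle and 68 in myoblasts had no 3′ UTR cluster at all in the other libraries. Of the 144 genes, 99 lie on the minus strand and 45 on the plus strand. Of the 2382 genes, 1380 lie on the minus strand and 1002 on the plus strand.

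Within the window, midpoints lay farther from the end in heart. The median distance was 110 nt in heart, 97 nt in muscle and 88 nt in myoblasts, and 44.7%, 52.0% and 56.9% of end clusters lay within 100 nt. Heart was lower than muscle by 7.3 percentage points (two-sided Fisher's exact test, adjusted p = 8.56e-06) and lower than myoblasts by 12.2 points (adjusted p = 2e-05). Muscle and myoblasts did not pass the threshold (adjusted exact p = 0.0846). Both called differences held on each strand, where heart had 39.5% within 100 nt on the plus strand against 45.8% in muscle, and 47.8% on the minus strand against 56.1%. An end cluster reached past the annotated end in 124 cases in heart (6.04%), 146 in muscle (7.09%) and 24 in myoblasts (6.23%), by at most 59 nt.

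The end nearest to a cluster was not always the last one of its gene. A cluster was counted as beside the last annotated end when it lay at most 200 nt upstream of it, even where another end was nearer. In heart 62.9% of end clusters lay beside the last annotated end, in muscle 65.9% and in myoblasts 70.6%. Only heart against myoblasts passed the test (adjusted p = 0.0113, two-sided Fisher's exact test). On the plus strand the values were 52.6% in heart against 69.8% in myoblasts (adjusted exact p = 2.21e-04), and on the minus strand 69.2% and 71.2% (adjusted exact p = 0.747). A poly(A) signal stood within 40 nt upstream of 65.3% of the ends beside which heart had a cluster, of 67.6% in muscle and of 69.5% in myoblasts. The rest are annotated ends without AATAAA or ATTAAA at that place.

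Clusters beside an end that had a signal lay mostly upstream of that signal. Of 1330 such clusters in heart, 1149 (86.4%) lay wholly upstream of the signal, 40 held part of it, 140 (10.5%) covered it and 1 lay downstream. Of 1389 in muscle, 1066 (76.7%) lay upstream, 64 held part, 258 (18.6%) covered it and 1 lay downstream. Of 271 in myoblasts, 209 (77.1%) lay upstream, 9 held part, 53 (19.6%) covered it and 0 lay downstream. The rule for end clusters favours a high share upstream and a low share downstream. Midpoints could lie anywhere in the window, whereas a signal was sought only in its last part, nearest the end. The shares within a library therefore describe position and do not test a preference for the upstream side. Clusters that covered or held part of the signal were less frequent in heart, with 13.5%, than in muscle with 23.2% (two-sided Fisher's exact test, adjusted p = 2.36e-10) and in myoblasts with 22.9% (adjusted p = 2.73e-04). At the 621 ends beside which both tissues had clusters the difference held, with 16.3% in heart and 24.2% in muscle (adjusted exact p = 4.61e-04). At the 127 ends shared by heart and myoblasts the values were 18.7% and 22.2% (adjusted exact p = 0.607). These comparisons of coverage were chosen after the data had been seen.

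AATAAA or ATTAAA was found inside 9.55% of end clusters in heart, against 2.06% of other 3′ UTR clusters. Over all 3′ UTR clusters of heart the share was 3.16%. In muscle the signal lay in 17.1% of end clusters and 4.06% of other 3′ UTR clusters (6.22% over both), and in myoblasts in 16.9% and 2.45% (5.65% over both). The 3 differences passed two-sided Fisher's exact tests (adjusted p = 1.71e-52 in heart, 2.61e-85 in muscle and 4.43e-22 in myoblasts). Since transcripts are cleaved close to a signal, the difference describes what clusters at this position cover. With midpoints up to 49 nt from the end the signal was in 29.6% of clusters in heart (24.4 to 35.2), 45.9% in muscle (41.1 to 50.8) and 53.1% in myoblasts (42.7 to 63.2), and with midpoints at 100 to 149 nt in 2.25%, 4.77% and 2.2%. On the minus strand 11.2% of end clusters held a signal in heart, 20.7% in muscle and 20.4% in myoblasts, and on the plus strand 6.74%, 11.7% and 11.9%. Among end clusters heart was below muscle (adjusted exact p = 2.62e-12) and below myoblasts (adjusted exact p = 7.21e-05), a comparison added after the data had been seen. Both held on each strand. Other 3′ UTR clusters were also lower in heart, at 2.06% against 4.06% in muscle and 2.45% in myoblasts. The odds ratio of end against other clusters was 5.01 in heart, 4.88 in muscle and 8.1 in myoblasts. The gap between heart and muscle was therefore not particular to end clusters.

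**Figure D3:**
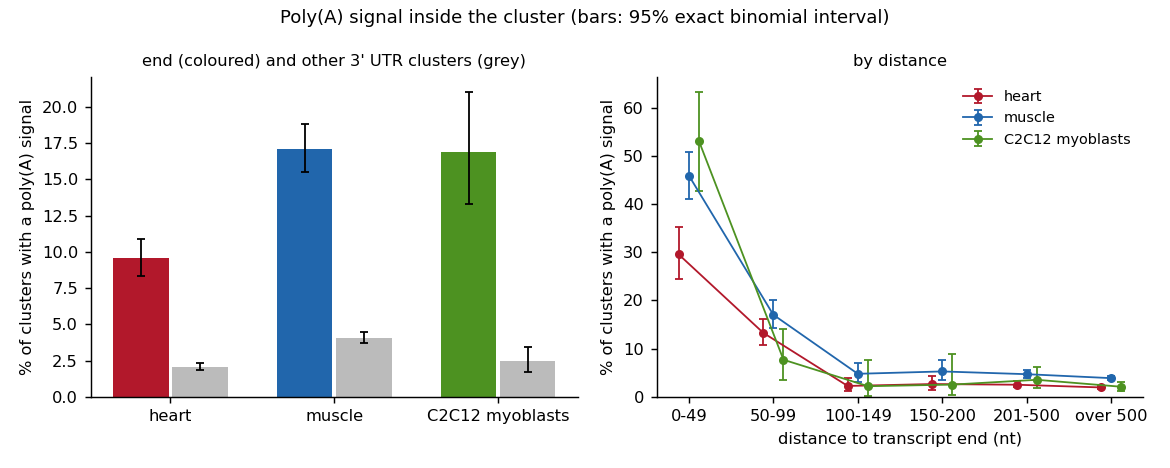
Percent of clusters that hold AATAAA or ATTAAA, with 95% exact binomial intervals. Left, end clusters (coloured) and other 3′ UTR clusters (grey) of each library, 9.55% and 2.06% in heart, 17.1% and 4.06% in muscle, 16.9% and 2.45% in myoblasts. Right, all 3′ UTR clusters by distance of the midpoint from the transcript end (nt), where the share falls off beyond 100 nt in each library.

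Over whole clusters, no difference between end clusters and other 3′ UTR clusters in the share with UGU passed the test. UGU was present in 97.6% of end clusters and 97.5% of other 3′ UTR clusters in heart, in 98.3% and 97.7% in muscle, and in 91.2% and 88.4% in myoblasts. Over all 3′ UTR clusters the shares were 97.5%, 97.8% and 89.0%. The adjusted p of the two-sided Fisher's exact test was 0.939 in heart, 0.209 in muscle and 0.209 in myoblasts. In the central 30 nt of the clusters the share in myoblasts was 6.21 percentage points higher in end clusters and passed (adjusted exact p = 0.0202). The intervals of the end clusters were 96.8 to 98.2% in heart, 97.6 to 98.8% in muscle and 87.9 to 93.8% in myoblasts. Where a gene had both kinds of cluster, the end clusters had the higher density of UGU in 593 genes and the lower in 512 in heart, and in 563 and 490 in muscle. These shares of genes passed an exact sign test narrowly (adjusted p = 0.0397 in both), with median densities of 5.19 UGU per 100 nt at the end and 4.84 elsewhere in heart, and 5.36 and 5.09 in muscle. In myoblasts 71 genes were higher and 53 lower (adjusted exact p = 0.127). In the central 30 nt of the clusters the call was lost and the direction turned in both tissues (adjusted exact p = 0.751 in both). It was also lost on the plus strand in heart (adjusted exact p = 0.664) and muscle (0.505), and in muscle on the minus strand (0.0686), with a window of 100 nt (0.123) and with the last end only (0.165).

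End clusters were about as wide as others, with medians of 61 nt at the end and 62 nt elsewhere in heart, 60 and 60 nt in muscle and 40 and 41 nt in myoblasts. Within genes they were narrower in heart, wider in 510 genes and narrower in 592 (exact sign test, adjusted p = 0.0439), which did not hold with clusters of at least 40 nt (adjusted p = 0.234). In muscle the counts were 522 and 521.

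Of all possible 5mers, 17 were more frequent in end clusters of heart (1.66%) and 4 less frequent (0.391%), in Fisher's exact tests on presence (two-sided, Benjamini-Hochberg adjusted). In muscle 49 were more frequent (4.79%) and 20 less frequent (1.95%), and in myoblasts 8 (0.781%) and 0, with 19 lower at an unadjusted p under 0.05. The 6 that were more frequent in all 3 libraries were made of A and U with at most 1 C, and included both 5mers contained in the commoner poly(A) signal. The first of these, AATAA, stood in 9.35% of end clusters and 3.38% of other 3′ UTR clusters in heart, in 17.4% and 5.95% in muscle and in 15.6% and 2.89% in myoblasts. When clusters with a poly(A) signal were left out, 1 5mer was called more frequent in heart, 21 in muscle and 0 in myoblasts. The 3 that were less frequent in both tissues each held TAG, and TTAGG was one of them. Among the 47 5mers that hold UGU, 2 were more frequent in end clusters of heart, 10 in muscle and 1 in myoblasts, and 0 less frequent in any. Of the 977 others, 15, 39 and 7 were more frequent and 4, 20 and 0 less frequent. TGTAT stood in 21.8% of end clusters and 16.9% of others in heart (adjusted exact p = 2.19e-05). In muscle it stood in 26.4% and 20.2% (adjusted exact p = 7.37e-08). TGTGT stood in 38.5% of end clusters and 37.9% of others in heart (adjusted exact p = 0.919), and in 36.8% and 36.3% in muscle (adjusted exact p = 0.874).

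Overlap with another library was counted from 1 bp on the same strand. In muscle 52.9% of end clusters overlapped a cluster of heart, against 62.5% of other 3′ UTR clusters (60.9% over both, adjusted exact p = 5.02e-15). In myoblasts 49.4% of end clusters overlapped heart, against 62.2% (59.3% over both, adjusted exact p = 2.25e-05), and 45.2% overlapped muscle, against 52.6% (51.0% over both, adjusted exact p = 0.0132). The overlap with myoblasts ran the other way, at 9.69% of end clusters and 7.25% of other clusters in heart (7.61% over both, adjusted exact p = 3.57e-04) and 8.84% and 7.12% in muscle (7.41% over both, adjusted exact p = 0.0113). Heart with muscle, at 52.1% and 54.2% (53.9% over both), did not pass (adjusted exact p = 0.0802). These are two-sided Fisher's exact tests adjusted over 6 directions, and the directions share clusters.

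On the plus strand 44.5% of the end clusters of muscle overlapped heart, against 60.9% of other clusters, and 39.0% of the end clusters of myoblasts, against 61.4%. On the minus strand the shares were 58.5% and 64.0% in muscle (adjusted exact p = 0.0011) and 56.6% and 62.8% in myoblasts (adjusted exact p = 0.153). Heart with muscle was 46.0% and 54.8% on the plus strand (adjusted exact p = 1.09e-05) and 55.7% and 53.6% on the minus strand (adjusted exact p = 0.211). The higher overlap with myoblasts passed the test on the minus strand, with 10.9% and 7.79% in heart (adjusted exact p = 0.0011) and 10.6% and 7.75% in muscle (adjusted exact p = 0.00316), and on the plus strand the values were 7.64% and 6.65% (adjusted exact p = 0.384) and 6.19% and 6.47% (adjusted exact p = 0.819). The difference between strands was not itself tested.

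The comparison also moved with the genes that entered. When only genes with a 3′ UTR cluster in the other library were kept, the end clusters of heart overlapped muscle 4.7 percentage points more often than other clusters (adjusted exact p = 5.8e-04), and those of myoblasts overlapped heart by -4.48 points (adjusted exact p = 0.182) and muscle by -1.75 points (adjusted exact p = 0.621). Muscle with heart kept a lower overlap, by -4.2 points (adjusted exact p = 0.00107). The higher overlap with myoblasts grew to 13.6 points in heart (adjusted exact p = 2.83e-11) and 11.7 points in muscle (adjusted exact p = 6.68e-09).

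**Figure D4:**
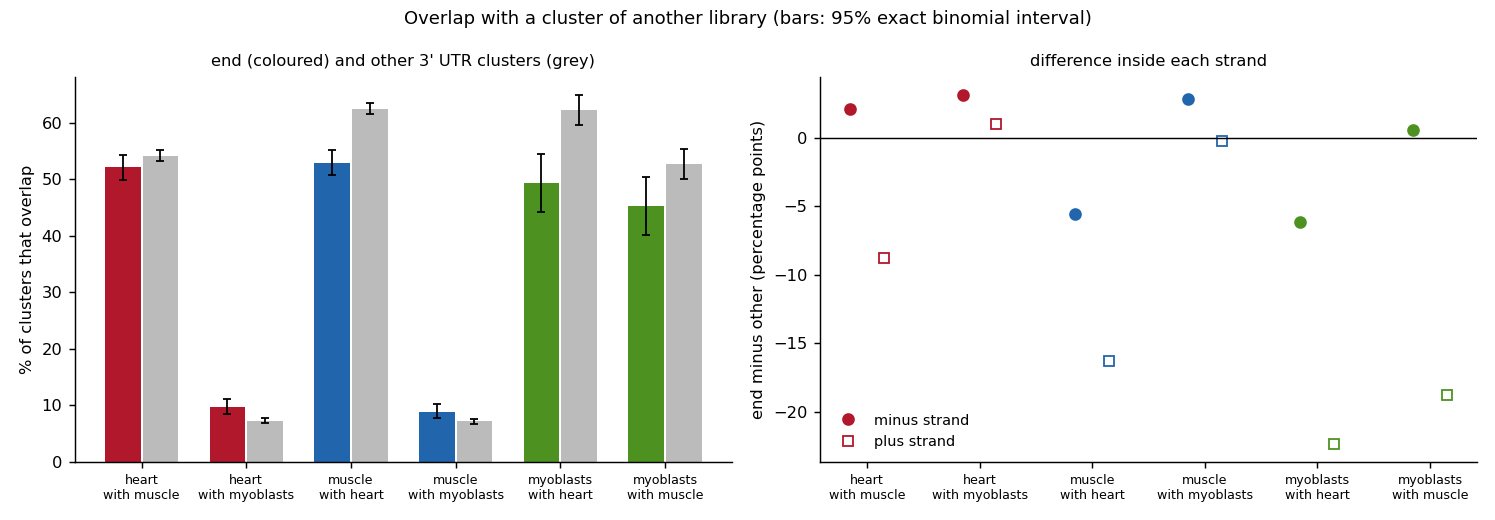
Overlap with any cluster of another library. Left, percent of end clusters (coloured) and of other 3′ UTR clusters (grey) that overlap, with 95% exact binomial intervals, for the 6 directions. Right, end minus other in percentage points inside the minus strand (filled circles) and the plus strand (open squares); for muscle with heart the points stand for 58.5% against 64.0% on the minus strand and 44.5% against 60.9% on the plus strand.

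By distance, the share of muscle clusters that overlapped heart was 43.5% with midpoints up to 49 nt from the end (38.7 to 48.4), 51.7% at 50 to 99 nt, 58.5% at 100 to 149 nt, 56.7% at 150 to 200 nt, 60.8% at 201 to 500 nt and 62.9% beyond. In myoblasts the shares in the same bins were 41.8% (31.9 to 52.2), 45.3%, 54.9%, 58.2%, 53.5% and 65.1%. The bin nearest the end was the lowest in both, a description with no test. It was not the lowest for myoblasts with muscle, at 46.9%, 41.0%, 48.4%, 45.6%, 48.8% and 53.9%. Clusters of heart overlapped muscle to 51.2%, 53.8%, 50.3%, 52.4%, 54.7% and 54.0%.

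The genes with the most end clusters were chosen by that count, which describes them only. Cpeb3, a cytoplasmic polyadenylation element-binding protein that controls translation of its targets, had 8 end clusters in heart, 5 in muscle, with 0 in myoblasts. They were spread over several annotated ends of a 3′ UTR of 3569 nt. Of those ends, only the last has a poly(A) signal within 40 nt. In heart the cluster beside the last end, at chr19:37095825-37095911 on the minus strand, lay 81 nt upstream of it, and the muscle cluster at chr19:37095837-37095941 lay 102 nt upstream. Qk, the gene of the RNA-binding protein Quaking, had 5, 5 and 0 end clusters, and the one beside its last end covered a poly(A) signal in both tissues. Kif1b, a kinesin motor, had 5 end clusters in heart, 5 in muscle, with 0 in myoblasts. Smyd1, a methyltransferase of heart and skeletal muscle needed for sarcomere formation, had 5, 3 and 0. Ablim1, an actin-binding LIM protein, had 6 in heart, 1 in muscle and 1 in myoblasts. The ends beside these Ablim1 clusters have no signal within 40 nt and are not the last of the gene. For Smyd1 only the last end has one. Qk and Kif1b had clusters beside ends with and without a signal.

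In myoblasts Atp1b3, the β3 subunit of the Na+/K+ pump, had 4 end clusters, beside 2 in heart and 4 in muscle. The ends at 96233099 and 96233464 each had a pair of clusters in muscle and in myoblasts. The first pair lay 45 and 120 nt upstream of its end in muscle and 40 and 133 nt in myoblasts, and the nearer cluster covered the poly(A) signal in both. In heart only the farther cluster of each pair met the rule, at 127 and 187 nt. The nearer clusters at 96233464 in muscle and in myoblasts still overlapped a heart cluster that was not an end cluster. Sqstm1, the autophagy receptor p62, had 3 end clusters in heart, 2 in muscle, with 4 in myoblasts. At its end at 50013669 a cluster covered the signal in all 3 libraries, with midpoints at 52, 49 and 19 nt. Hmox1, heme oxygenase 1, had 2, 1 and 3 end clusters, and the one whose nearest end is the last one, at 77624495, lay at 146 nt in heart, 139 nt in muscle and 147 nt in myoblasts. Cltc, the clathrin heavy chain, had 3, 3 and 2, and R3hdm4 4, 4 and 2. Of these 10 genes, 9 lie on the minus strand, as do 1380 of the 2382 genes with an end cluster in any library.

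Some genes had end clusters in 1 tissue only although their 3′ UTR had clusters in both. Mtus1 had 2 end clusters in heart and 0 in muscle, with 12 and 11 other 3′ UTR clusters. Hlf, a PAR bZIP transcription factor, had 2 and 0 beside 10 and 10 others. Spin1, a reader of methylated histones, and Daam1, a formin that builds actin filaments, also had 2 and 0. In the other direction Lypla1, an enzyme that removes palmitate from proteins, had 3 end clusters in muscle and 0 in heart, with 5 and 4 other clusters. Slc30a4, a zinc transporter, had 3 and 0 beside 5 and 3 others, and Irf2bpl and Ndst1, a heparan sulfate-modifying enzyme, had 3 and 0 as well. Ptbp3, a splicing regulator of the polypyrimidine tract-binding family, had 2 end clusters in myoblasts and 0 in heart and muscle, where it had 7 and 2 other 3′ UTR clusters. Apc, Arf3 and Atp6ap1 had 1 end cluster in myoblasts and 0 in either tissue. Clusters outside the rule can still lie on such a site: the myoblast end cluster of Atp6ap1 overlapped a cluster of heart and one of muscle, and the end cluster of Irf2bpl with its midpoint 194 nt from the end in muscle overlapped a cluster of heart. With counts this small and 1 library each, these are values of single libraries.

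Of the genes the study discusses for 3′ UTR binding, Cpe, a carboxypeptidase that processes prohormones, had 2 end clusters in heart, 2 in muscle, with 1 in myoblasts. In heart they lay 66 and 174 nt upstream of the end at 67071355, in muscle 64 and 184 nt, and in myoblasts 134 nt. Igfbp5, an insulin-like growth factor-binding protein, had 1, 1 and 0, at 179 nt in heart and 166 nt in muscle. Myadm and Cnih4 had 1 end cluster each, in muscle, at 87 and 175 nt, although Myadm had 7 other 3′ UTR clusters in heart, 5 in muscle, with 5 in myoblasts. Clcn1, the muscle chloride channel, Kcnj2, an inward-rectifier potassium channel with 11 other 3′ UTR clusters in heart and 9 in muscle, and Sobp had 0 end clusters in any library.

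Gene lists were described by the share of their genes with a 3′ UTR cluster that had an end cluster, beside 38.8% of all such genes in heart, 43.1% in muscle and 30.6% in myoblasts. The highest share in heart was that of nuclear-encoded oxidative phosphorylation genes, of which 13 of 14 had an end cluster in heart and 7 of 9 in muscle. Ndufs1, a core subunit of complex I, had 1 in heart and 2 in muscle, and a cluster covered its poly(A) signal in both. These genes had short 3′ UTRs, with a median of 329 nt in heart and 487 nt in muscle, so that much of each lies inside the window. Sarcomere genes had an end cluster in 12 of 16 in heart and 13 of 16 in muscle, again with short 3′ UTRs (median 695.5 and 676.5 nt), and in 0 of 3 in myoblasts. Tpm1, a tropomyosin, had 3 in heart and 2 in muscle, Ldb3, a Z-disc protein, had 3 and 2, and Fhl1 had 1 and 3. The part of 3′ UTR length in these counts was not tested.

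Of ion channel and calcium handling genes 16 of 23 had an end cluster in heart, 15 of 25 in muscle and 2 of 4 in myoblasts, with a median 3′ UTR of 1990 nt in heart. Camk2d, a calcium- and calmodulin-dependent kinase, had 3, 2 and 1 end clusters, and Atp2a2, the SERCA2 calcium pump, had 2, 2 and 0. Among actin and microtubule genes the counts were 17 of 34, 17 of 31 and 7 of 18. Actb, β-actin, had 3 end clusters in heart, 2 in muscle, with 2 in myoblasts. Of vesicle and protein transport genes 13 of 35, 12 of 32 and 6 of 14 had one, close to the share over all genes in the tissues. Rab11a, a GTPase of recycling endosomes, had 3, 3 and 1.

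Genes that act on RNA were also listed. Of splicing regulators 11 of 25 had an end cluster in heart, 14 of 28 in muscle and 6 of 12 in myoblasts. Celf2, the closest relative of CELF1, had 3, 1 and 1, and at its end at 6462915 a cluster lay 67 nt upstream in heart, 77 nt in muscle and 49 nt in myoblasts. Mbnl1, a splicing factor of muscle, had 2, 3 and 0. Of genes of poly(A) binding and translation control 7 of 13 had one in heart, 8 of 12 in muscle and 1 of 3 in myoblasts, among them Msi2, a Musashi protein, with 4, 4 and 0. Of genes of deadenylation and mRNA decay 4 of 18, 6 of 17 and 3 of 6 had one. Khsrp, a KH-domain protein of AU-rich element decay, had 2, 1 and 2. Of cleavage and polyadenylation genes 3 of 6, 3 of 5 and 0 of 2 had one, and Papola, the canonical poly(A) polymerase, had 2, 4 and 0. Of microRNA silencing genes 3 of 8, 4 of 8 and 0 of 4 had one.

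Immediate early and GU-rich-element mRNAs, which hold known CELF1 decay targets, had an end cluster in 3 of 13 genes in heart, 3 of 14 in muscle and 2 of 4 in myoblasts. Fosl2, an AP-1 subunit, had 1 in heart, 0 in muscle and 2 in myoblasts, and Dusp1, a MAP kinase phosphatase, had 0, 2 and 0. Of cell cycle and growth genes 2 of 9, 4 of 9 and 4 of 8 had one. Of cytosolic ribosomal protein genes with a 3′ UTR cluster 1 of 4, 0 of 3 and 3 of 3 had one. Endothelial markers had one in 1 of 4 and 1 of 2 in the tissues, and fibroblast markers in 0 of 1 and 0 of 1.

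**Figure D5:**
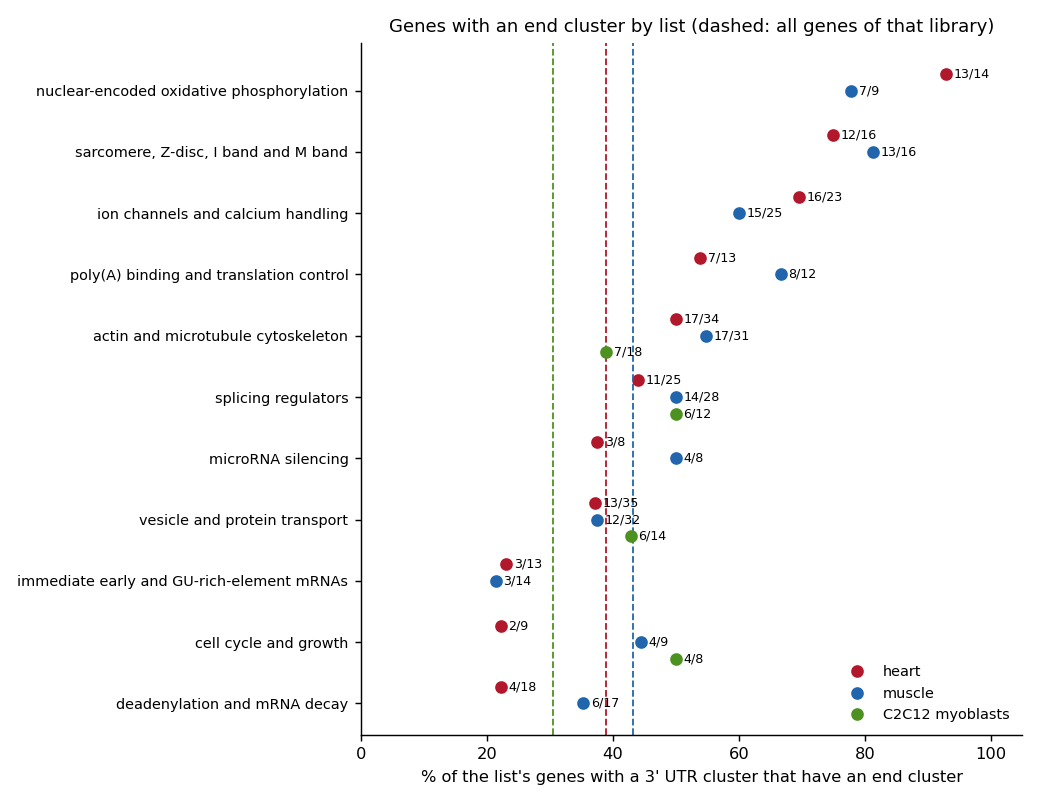
Percent of the genes of each list with a 3′ UTR cluster that had an end cluster (x axis), for heart (red), muscle (blue) and C2C12 myoblasts (green), with the counts beside each point; lists with under 8 such genes in a library are left out there, and dashed lines give 38.8%, 43.1% and 30.6% of all genes. Oxidative phosphorylation genes (13 of 14 in heart) and sarcomere genes (12 of 16) lie to the right and have short 3′ UTRs.

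Around the 200-nt limit the clusters did not change abruptly. With midpoints 181 to 200 nt from the end there were 237 clusters in heart, 204 in muscle, with 30 in myoblasts, and with midpoints 201 to 220 nt there were 201, 212 and 34. UGU was in 98.7% just inside and 98.0% just outside in heart, in 98.0% and 98.1% in muscle and in 83.3% and 88.2% in myoblasts. A poly(A) signal was in 2.95% and 3.48%, in 4.9% and 6.6%, and in 3.33% and 2.94%.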

How the data were processed

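CELF1 CLIP-seq clusters were analysed from 3 mouse libraries, 1 each of heart, muscle and C2C12 myoblasts. As the labels and methods state, the authors removed identical reads and adapters and mapped reads uniquely to mm9 and splice junctions with Bowtie and TopHat (versions not given in the sources used here). They called clusters per library where reads in 30-nt windows exceeded a Poisson model that used gene expression and pre-mRNA length. The deposited files hold each cluster's position and Entrez identifier, and a score of 1e-06 in every row, which was not used. A cluster needs expression of its gene, so that less binding and less RNA cannot be told apart.

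Of 8037 gene identifiers, 7981 (99.3%) were matched to GENCODE vM1 genes on NCBIM37, the assembly of mm9, through RefSeq symbols. Midpoints were assigned to 3′ UTRs of protein-coding transcripts, and distance was genomic. Positions count from 1. Shares have exact Clopper-Pearson 95% intervals. Between end clusters and others, and between libraries, two-sided Fisher's exact tests were used, and for density and width an exact two-sided sign test over genes, with Benjamini-Hochberg adjustment within each family and a threshold of 0.05. The Fisher's exact tests were run on simulated data, in which 2 of 2 planted 5mers were recovered per library. The simulated clusters were independent of each other, and the sign test was not run on them. Motifs were sought on the transcript strand only, overlaps counted: TGT, AATAAA and ATTAAA.

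Genes were named by rule: the 10 with the most UGU in a common stretch, the 5 per library with the most end clusters, 4 per direction with end clusters in 1 library only, genes the study discusses, and up to 3 per gene list with the most end clusters. A few of the last group are given as list counts only. Members and lists were chosen with earlier results of these data known. Alternatives were another window, the last end only, wider clusters, 1 cluster per gene, shared genes, long 3′ UTRs, a stricter overlap, the central 30 nt and AATAAA alone. Those by strand, by ends flagged as incomplete, by genes shared for overlap, and without poly(A) signals were chosen after seeing the data. Analyses ran in Python 3.11.15 (scipy 1.17.1, pandas 2.3.3, numpy 2.4.6, matplotlib 3.10.9, pysam 0.24.0).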

Additional observations from a re-analysis of the deposited data

How the results depend on the processing

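Of 276 alternative values for 36 results, 209 kept their direction and their side of the threshold or, for counts of 5mers, stayed within 1.5 times. In every alternative tried, the poly(A) signal was more frequent in end clusters than in other 3′ UTR clusters, muscle with heart kept a lower overlap of end clusters, and a lower share of end clusters lay within 100 nt in heart than in muscle and in myoblasts. Differences below are in percentage points. For UGU density and width they are the percent of genes with the higher value in end clusters, less 50. The cause of each change was not tested.

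With a 100-nt window, heart against muscle beside the last end became -5.66 and passed, UGU in heart was -0.144, UGU density in muscle 3.36 and no longer passed, width was -4.56 in heart and no longer passed and -3.09 in muscle, and 9 5mers were lower in heart, against 4. With the last end only, heart with muscle overlap became -3.99 and passed, UGU density in muscle fell short at 2.9, width in muscle was -0.318, and 2 5mers were lower in heart. With clusters of at least 40 nt, heart against myoblasts beside the last end was -5.49, overlap of myoblasts with muscle -7.21 and width in heart -2.82, none of which passed. There UGU in myoblasts turned to -1.03 and width in muscle to -1.01, 13 5mers were lower in muscle, against 20, and 3 were higher in myoblasts, against 8. With 1 cluster per gene and kind, the share of end clusters turned to 3.15 for heart against myoblasts and 5.9 for muscle against myoblasts, the share beside the last end was -3.21 for heart against myoblasts, which no longer passed, and 0.381 for muscle against myoblasts, and heart with muscle overlap was 3.98.

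On the plus strand, muscle against myoblasts beside the last end was -13.7 and heart with muscle overlap -8.77, and both passed. UGU in heart turned to -0.451, overlap of muscle with myoblasts to -0.284, and the signal in end clusters of muscle against myoblasts to -0.299. Overlap of heart with myoblasts (0.995), UGU density (1.17 in heart, 2.58 in muscle) and width in heart (-3.97) no longer passed, and 5mers numbered 2 higher and 0 lower in heart, 11 higher and 4 lower in muscle and 0 higher in myoblasts. On the minus strand, the share beside the last end was -2.07 for heart against myoblasts, which no longer passed, and 1.23 for muscle against myoblasts. Overlap was 2.12 for heart with muscle, -6.19 for myoblasts with heart, which no longer passed, and 0.584 for myoblasts with muscle. UGU density in muscle (4.07) and width in heart (-3.56) no longer passed, width turned to -1.53 in muscle and 1.22 in myoblasts, and 0 5mers were lower in heart and 9 in muscle.

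With 50% of both clusters shared, overlap of myoblasts with heart (-3.9) and with muscle (-2.49) no longer passed. In genes with a 3′ UTR cluster in the other library it was 4.7 for heart with muscle, and -4.48 and -1.75 for myoblasts with heart and with muscle, neither of which passed. In the central 30 nt, UGU was -0.782 in heart and 6.21 in myoblasts, where it passed, UGU density was -0.556 in heart and -1.48 in muscle, and 5mers numbered 3 higher and 0 lower in heart, 23 higher and 5 lower in muscle and 2 higher in myoblasts. Without clusters that hold a poly(A) signal, 5mers numbered 1 higher and 1 lower in heart, 21 higher and 11 lower in muscle and 0 higher in myoblasts. With AATAAA alone, the signal in end clusters of muscle against myoblasts was -0.442. No paired analysis was possible because each group is 1 library. The number of clusters in myoblasts limits every count there, and reads per cluster are unknown.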
